A study of Mus musculus with 36 samples.

Results

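The monocyte genes described here are 9 genes that mouse blood and tissue monocytes express: the chemokine and growth factor receptors Ccr2, Cx3cr1 and Csf1r, the surface proteins Cd14, Itgam and Ms4a6c, and the secreted proteins Lyz2, F13a1 and Fn1. They were chosen by name from the 18193 genes that have a probe set of their own on the array. All probe sets that name only one of them were taken, which gave 17 of 45037 probe sets. Of these, 16 passed the filter on low values, as did 27022 probe sets in all, and each of the 9 genes kept at least 1. The members were measured in the spleens of 18 arthritic mice (ART) and 18 non-arthritic mice (NON), all F2 animals aged 4 months, with 1 array per mouse. The series title ties the arthritis to a lack of interleukin 1 receptor antagonist, the secreted inhibitor of interleukin 1 signalling that Il1rn encodes. No label states the genotype, the sex, the parental strains or how severe the arthritis was, so whether the NON mice lack the antagonist too is not known here. The study looked for subpopulations among the arthritic mice, and the spread of these genes over mice bears on that question.

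Monocytes arise in the bone marrow and circulate in blood, and the spleen holds a large store of them. Classical monocytes leave the marrow through the chemokine receptor encoded by Ccr2 and enter inflamed tissue, while non-classical monocytes patrol vessels and depend on the fractalkine receptor encoded by Cx3cr1. Csf1r encodes the receptor through which colony stimulating factor 1 keeps monocytes and macrophages alive. Several of the genes are shared with other spleen cells: Lyz2 and Itgam with neutrophils, Csf1r and Cd14 with tissue macrophages, F13a1 with megakaryocytes and Fn1 with stroma and macrophages. In whole spleen RNA, fewer cells of a type and less RNA per cell cannot be told apart.

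The deposited values are Affymetrix MAS5 intensities, 1 linear brightness per probe set and array, and tests were run on log2(intensity + 16). Arrays had median intensities of 110.6 to 183.2. Il1rn had a low signal in both groups on its brightest probe set, 1425663_at, with 6.48 ± 0.65 in ART and 6.52 ± 0.55 in NON spleens (log2 mean and SD, n = 18 each), and where its probe set lies relative to any deletion is not stated, so it checks no label. Markers of spleen lymphocytes were well measured in every mouse: the B cell gene Ms4a1 had log2 levels from 12.6 to 13.8, and the T cell gene Cd3e from 8.86 to 10.8. The hybridisation controls added to each sample split the 36 arrays into 3 groups, called spike-in sets here, found by clustering 18 control probe sets. Set A held 13 arrays (9 ART, 4 NON), set B 16 (6 ART, 10 NON) and set C 7 (3 ART, 4 NON), so the sets and the arthritis groups overlapped in part. The labels do not say what these sets are. Array 8 of the ART mice and arrays 5, 6 and 7 of the NON mice had high pancreas transcripts, and array 14 of the ART mice had a high actin 3′ to 5′ ratio of 2.74.

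The promoters of Itgam, F13a1 and Ms4a6c, 3 of the members with called pairs in the correlations over mice, and of Cx3cr1, which had 0 called pairs, are shown so that their motifs can be compared. No window is shown for Fn1, Cd14 and Csf1r, which had called pairs too. They are RefSeq windows on GRCm38.p6 from 250 bases before to 50 bases after the annotated start, read 5′ to 3′ along the gene, at chr7:128062390-128062689 (plus strand) for Itgam, chr13:37050195-37050494 and chr13:37049164-37049463 (minus strand) for the starts of F13a1, chr19:11469118-11469417 (plus strand) for Ms4a6c and chr9:120068247-120068546 (minus strand) for Cx3cr1. Capitals mark matches, on either strand, to GAGGAA, a core of the sites bound by the myeloid factor PU.1, and to TTNNGNAA, a core of C/EBP sites; where matches overlap, the capitals run together.
Itgam: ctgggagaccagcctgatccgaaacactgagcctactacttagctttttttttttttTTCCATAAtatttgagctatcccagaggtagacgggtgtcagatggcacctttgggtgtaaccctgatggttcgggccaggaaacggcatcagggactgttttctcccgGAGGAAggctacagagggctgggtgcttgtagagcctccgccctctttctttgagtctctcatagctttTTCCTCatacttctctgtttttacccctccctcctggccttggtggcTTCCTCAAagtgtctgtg
F13a1 first window: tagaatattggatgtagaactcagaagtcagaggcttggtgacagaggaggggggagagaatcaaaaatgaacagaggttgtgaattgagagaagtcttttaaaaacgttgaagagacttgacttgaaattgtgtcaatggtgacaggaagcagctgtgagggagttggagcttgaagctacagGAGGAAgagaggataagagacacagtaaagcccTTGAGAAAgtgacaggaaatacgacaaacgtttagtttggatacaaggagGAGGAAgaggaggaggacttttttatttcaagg
F13a1 second window: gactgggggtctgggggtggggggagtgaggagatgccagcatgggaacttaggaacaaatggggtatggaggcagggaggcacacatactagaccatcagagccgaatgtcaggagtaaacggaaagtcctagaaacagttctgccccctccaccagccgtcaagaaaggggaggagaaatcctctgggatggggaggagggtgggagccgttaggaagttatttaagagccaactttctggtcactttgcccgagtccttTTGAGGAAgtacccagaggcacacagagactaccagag
Ms4a6c: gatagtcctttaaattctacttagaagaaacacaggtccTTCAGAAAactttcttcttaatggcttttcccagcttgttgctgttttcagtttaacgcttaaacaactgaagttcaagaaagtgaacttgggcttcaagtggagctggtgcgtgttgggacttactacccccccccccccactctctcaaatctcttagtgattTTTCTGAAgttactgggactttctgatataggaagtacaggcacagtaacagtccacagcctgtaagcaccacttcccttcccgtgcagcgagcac
Cx3cr1: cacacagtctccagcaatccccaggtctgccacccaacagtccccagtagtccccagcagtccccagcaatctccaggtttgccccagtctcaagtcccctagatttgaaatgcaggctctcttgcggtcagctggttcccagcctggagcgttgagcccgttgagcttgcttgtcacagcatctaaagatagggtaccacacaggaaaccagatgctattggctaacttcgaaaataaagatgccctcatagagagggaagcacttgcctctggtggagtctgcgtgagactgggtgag

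The Itgam window held 3 matches to GAGGAA and 2 to TTNNGNAA. The F13a1 windows held 2 and 1 matches to GAGGAA and 1 match each to TTNNGNAA, and the Ms4a6c window held 0 and 2. The Cx3cr1 window held 0 of either. Among 32851 promoter windows of this length, 28.3% held GAGGAA and 40.7% held TTNNGNAA, so a match is common and is given as a description. Windows of Ccr2, which had called pairs, and Lyz2, which had 0, held 0 matches to GAGGAA and 1 to TTNNGNAA each.

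The first comparison asked whether the monocyte genes differed between arthritic and non-arthritic spleens. Ms4a6c and Lyz2 had the highest ART minus NON differences relative to their error, 0.47 and 0.18 on the log2 scale, and 0 of the 16 tested member probe sets passed the adjusted threshold of 0.05 by limma. Over the whole array 13 of 27022 probe sets passed, which is 0.0481%. At an unadjusted p under 0.05 there were 2 of the 16 member probe sets, Lyz2 and Ms4a6c, against 4250 or 15.7% of all tested. The difference was positive for 8 of the 9 genes with a median of 0.142, against a median of -0.002 and 49.4% positive over the 12427 genes tested.

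Ms4a6c encodes a membrane-spanning protein of the MS4A family that monocytes and macrophages carry. Its probe set 1450234_at had intensities from 278.3 to 1416, with a median of 813, in ART spleens, and from 238 to 934, with a median of 509, in NON spleens. The ranges overlapped widely, although 15 of 18 ART mice lay above the NON median and 5 above the highest NON mouse. The means were 9.53 ± 0.57 in ART and 9.06 ± 0.49 in NON spleens (SD of log2 values, n = 18 each), a 1.38-fold difference (95% interval of the log2 difference 0.13 to 0.81, limma adjusted p = 0.176). Within spike-in sets A, B and C the log2 difference was 0.17, 0.17 and 0.42. With the set as a block it was 0.22 (SE 0.11, limma adjusted p = 0.399). The second probe set of the gene, 1457725_at, differed by 0.18 (SE 0.09, limma adjusted p = 0.328).

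Ccr2, the receptor of the chemokine CCL2, had intensities from 379 to 1597, with a median of 817, in ART spleens on probe set 1421186_at. In NON spleens they ran from 548 to 1444 with a median of 779. The lowest ART mice lay below all NON mice and the highest ART mouse above them, and the means differed by -0.05 (SE 0.14, limma adjusted p = 0.897). Its 3 other probe sets differed by 0.30, -0.32 and 0.20 and did not pass either.

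Cx3cr1, the fractalkine receptor, had intensities from 186 to 717, with a median of 357, in ART and from 164 to 497, with a median of 361, in NON spleens on 1450020_at. The groups overlapped nearly throughout, with 3 ART mice above the highest NON mouse and 1 NON mouse below the lowest ART mouse, and the log2 difference was 0.14 (SE 0.14, limma adjusted p = 0.624). The other probe set, 1450019_at, was too low to be tested, with a median intensity of 72.8 in ART and 58.4 in NON spleens.

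Csf1r ran from 12579 to 17830, with a median of 15387, in ART spleens on probe set 1419872_at. In NON spleens it ran from 11472 to 17793 with a median of 14556. The means differed by 0.08 (SE 0.06, limma adjusted p = 0.515), and the other probe sets by 0.14 and 0.28, also without passing.

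Cd14, the co-receptor that hands lipopolysaccharide to the TLR4 complex, ran from 375 to 1151, with a median of 571, in ART and from 308 to 900, with a median of 536, in NON spleens. The groups overlapped, with 2 ART mice above the NON range and 1 NON mouse below the ART range, and the log2 difference was 0.07 (SE 0.14, limma adjusted p = 0.827).

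Itgam encodes CD11b, the alpha chain of the integrin Mac-1, which binds complement fragments and ICAM-1. It ran from 67.5 to 814, with a median of 418, in ART and from 122 to 651, with a median of 240, in NON spleens. The ART mice held both the lowest and the highest value of the study, and the means differed by 0.23 (SE 0.25, limma adjusted p = 0.682). Within sets A, B and C the log2 difference was 0.33, -0.62 and 0.30, and with the set as a block it was -0.11 (SE 0.18).

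Lyz2 encodes lysozyme M, the antibacterial enzyme of myeloid granules. It ran from 15511 to 25584, with a median of 20131, in ART and from 13467 to 21022, with a median of 17573, in NON spleens. A majority of ART mice, 15 of 18, lay above the NON median, 4 lay above the whole NON range, and the ranges otherwise overlapped. The log2 means were 14.26 ± 0.20 in ART and 14.08 ± 0.16 in NON spleens (SD, n = 18 each), a 1.13-fold difference with a limma adjusted p of 0.168. With the spike-in set as a block the difference was 0.18 (SE 0.07, limma adjusted p = 0.274), and it was 0.02, 0.28 and 0.20 within sets A, B and C.

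F13a1 encodes the A subunit of coagulation factor XIII, the transglutaminase that crosslinks fibrin. It ran from 561 to 2287, with a median of 1292, in ART and from 543 to 3211, with a median of 976, in NON spleens. The highest value belonged to NON mouse 12 and the other mice overlapped, with a log2 difference of 0.23 (SE 0.19, limma adjusted p = 0.561). Within set A the ART mice were higher by 0.87 on average, against -0.27 in set B and 0.27 in set C.

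Fn1 encodes fibronectin, the matrix and plasma glycoprotein that integrins bind. It ran from 1683 to 3030, with a median of 2182, in ART and from 1435 to 3562, with a median of 2013, in NON spleens. The NON range enclosed the ART range, and the means differed by 0.09 (SE 0.09, limma adjusted p = 0.672). The second probe set, 1437218_at, differed by -0.06.

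**Figure D1:**
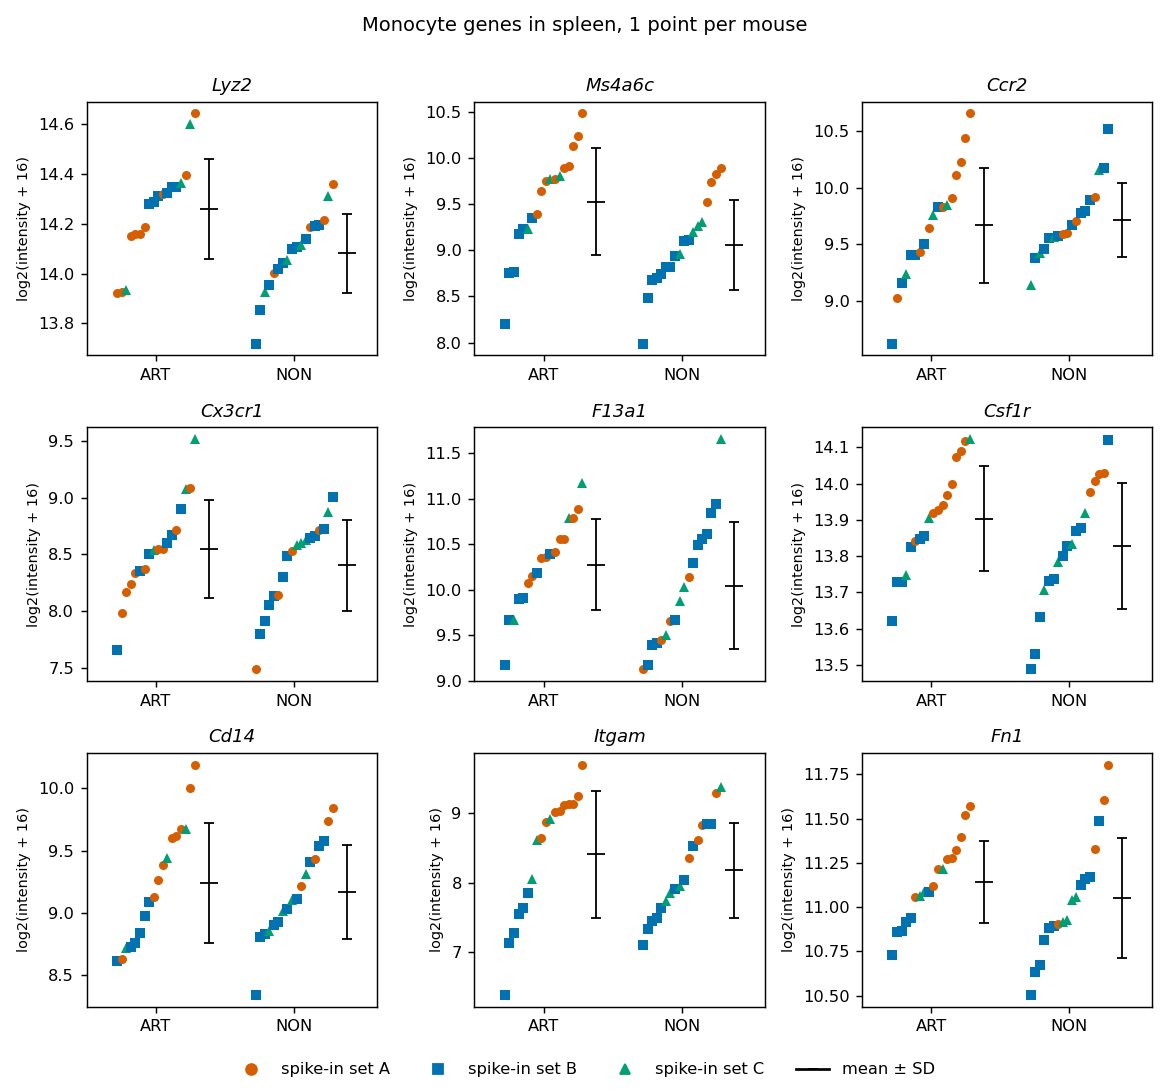
Log2(intensity + 16) of the probe set that represents each gene, 1 point per mouse sorted by value, with ART mice left and NON mice right, and the mean ± SD (n = 18 each) in black. Colours and shapes give the spike-in set; set A mice lie mostly in the upper part of the Itgam and Ms4a6c panels in both groups, and the ART and NON ranges overlap for all 9 genes.

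Blocking on the spike-in set lowered the median difference of the 9 genes to 0.019, with 5 positive. The sign turned for Itgam, Cd14 and Fn1, and 0 member probe sets passed. Within set A 6 genes were positive with a median of 0.17, within set B 4 with a median of -0.04, and within set C all 9 with a median of 0.20. Over all tested genes 43.7%, 54.0% and 51.4% were positive in those sets. The direction of the group difference was thus the same in all 3 sets only for Lyz2, Ms4a6c and Cx3cr1.

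**Figure D2:**
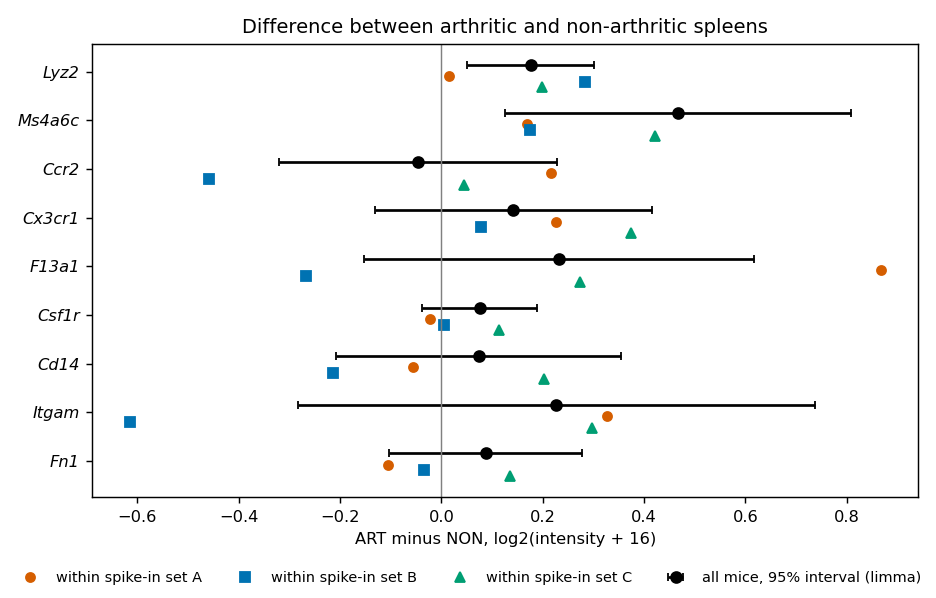
ART minus NON difference in log2(intensity + 16) for each gene, with black points and bars for the limma estimate over 36 mice and its 95% interval, and coloured symbols for the difference of group means within each spike-in set. The intervals of Lyz2 (0.05 to 0.30) and Ms4a6c (0.13 to 0.81) lie above 0 before adjustment, and Ccr2, F13a1 and Itgam fall on opposite sides of 0 in sets A and B.

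The second comparison asked how far the genes ranged over mice and whether arthritic mice were more spread out. Itgam ranged most among the representative probe sets, 12.1-fold from the lowest to the highest of 36 mice, and its SD within groups of 0.80 was above that of 96.9% of tested probe sets. Ms4a6c ranged 5.95-fold, F13a1 5.92-fold, Cx3cr1 4.39-fold, Ccr2 4.21-fold and Cd14 3.74-fold. Fn1 ranged 2.48-fold, Lyz2 1.90-fold and Csf1r 1.55-fold, the last with an SD of 0.16 that was above only 3.67% of tested probe sets.

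Absolute deviations from the group median were larger in ART for 5 of the 9 genes. By limma on these deviations 0 of the 16 member probe sets passed, as did 0 of 27022 in all (0.0%), with 1 member probe set and 2071 probe sets in all at an unadjusted p under 0.05. That member was the Ccr2 probe set 1421187_at, whose mean deviation was 0.91 in ART and 0.46 in NON spleens (limma adjusted p = 0.586). It ran from 65.9 to 1030 in ART and from 98.1 to 558 in NON spleens. Its log2 means in spike-in sets A, B and C were 9.1, 7.1 and 7.9 in ART mice and 8.4, 7.7 and 8.1 in NON mice. Its spread around the group median thus includes the difference between sets. Over all tested probe sets, 57.1% had the larger deviation in ART.

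The mean of the 9 genes, each centred on its average over mice, ordered the animals from ART mouse 3 at 0.53 to ART mouse 14 at -0.58 on the log2 scale. Of the 6 mice with the highest means all were ART, 4 of them in set A and 2 in set C. At the low end ART mice 14 and 18 stood beside NON mice 18, 3 and 16, all in set B. ART mice therefore filled both ends of the order, and array 14, the lowest, is the one with the high actin ratio.

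The spike-in sets were compared directly because they moved with the members. By a limma F test with the arthritis group as a term, 6 of the 9 representative probe sets differed between sets, as did 12997 of 27022 tested (48.1%). Set A had the highest mean for 7 of the 9 genes and set B the lowest for 7. Ms4a6c was higher in set A than in set B by 0.99 (limma adjusted p = 1.06e-07) and Itgam by 1.34 (limma adjusted p = 8.23e-06). Cd14 was higher by 0.57, Fn1 by 0.42 and Csf1r by 0.22, while Cx3cr1 was highest in set C. Lyz2, Ccr2 and F13a1 did not pass on these probe sets, with adjusted p-values of 0.923, 0.208 and 0.520 by limma. Over all 16 tested member probe sets 10 differed between sets. The Ccr2 probe set 1421187_at was higher in set A than in set B by 1.43 (limma adjusted p = 3.4e-05). On 1437218_at Fn1 went the other way, with -0.58 (limma adjusted p = 0.0337). On 1457725_at Ms4a6c did not pass, with -0.01 (limma adjusted p = 0.292). The ratio of the 3′ to the 5′ Gapdh control moved with the sets, from 0.679 to 0.888 in A, from 0.846 to 1.16 in B and from 0.834 to 1.02 in C, and its part in these differences was not tested.

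The third comparison asked whether the members moved together from mouse to mouse. After centring on the group, 33 of the 36 pairs of genes had a positive Pearson r, with a median of 0.278, against a median of 0.005 over all pairs of tested genes. An r of 0.5 or more was reached by 9 of the 36 pairs, against 3.85% of all gene pairs. By permutation of mice within groups, adjusted over the 36 pairs, 13 pairs passed by Pearson r and 15 by Spearman rho. All 13 lay among the 21 pairs of the 7 genes other than Lyz2 and Cx3cr1, and each of these had 0 of 8 pairs called, with r between -0.10 and 0.35.

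The closest pair was Ms4a6c and Itgam, with r = 0.757 and rho = 0.751 over 36 mice (permutation p = 1e-05 for both, the smallest these permutations can give, adjusted p = 0.00036). Without the 2 mice farthest from the Ms4a6c median, ART mouse 14 and NON mouse 18, r was 0.716. Itgam and Fn1 had r = 0.659 and rho = 0.675 (permutation p = 2e-05 for both). Itgam and F13a1 had r = 0.617 and rho = 0.573 (permutation p = 4e-05 and 0.00026). Without the 2 mice farthest from the median of the first gene r was 0.661 for Itgam with Fn1 and 0.507 for F13a1 with Itgam, the F13a1 value without NON mouse 12 and ART mouse 18.

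Ms4a6c also passed with Fn1 (r = 0.589), Cd14 (r = 0.574), Ccr2 (r = 0.502) and Csf1r (r = 0.477). Itgam also passed with Ccr2 (r = 0.512), Cd14 (r = 0.434) and Csf1r (r = 0.414). The other called pairs were Csf1r with Cd14 (r = 0.558), Cd14 with Fn1 (r = 0.550) and Ccr2 with F13a1 (r = 0.438). Without ART mouse 14 and NON mouse 18, the farthest from the Ms4a6c median, r of Ms4a6c with Ccr2 was 0.373.

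Within single spike-in sets the median r of the pairs was 0.18 in set A, 0.15 in set B and 0.52 in set C, where 7 mice entered. After centring on both group and set the median was 0.208, 3 pairs reached an r of 0.5 or more, against 2.02% of all gene pairs, and 3 passed the permutation test. F13a1 and Itgam had r = 0.839 on these values, with 0.554, 0.843 and 0.967 within sets A, B and C. Ms4a6c and Ccr2 had r = 0.535 (permutation adjusted p = 0.0287), and F13a1 and Fn1 had r = 0.505 (permutation adjusted p = 0.0263). Ms4a6c and Itgam had r = 0.408 (permutation adjusted p = 0.0989), and r for Csf1r with Itgam was -0.107, against 0.414 without centring on the set.

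Within ART mice the median r was 0.55 and 20 of 36 pairs passed, while within NON mice it was 0.23 and 2 passed. The share over all gene pairs was not computed within each group, so these counts cannot be called particular to the members. After centring on the set the medians were 0.32 in ART and 0.13 in NON mice. A test of the difference itself, permuting the group labels over group-centred values and adjusting over 36 pairs, called 2 pairs. F13a1 and Csf1r had r = 0.771 in ART and -0.368 in NON mice (permutation adjusted p = 0.0216). Ccr2 and Fn1 had r = 0.637 in ART and -0.083 in NON mice (permutation adjusted p = 0.0216). On set-centred values these gave adjusted p-values of 0.105 and 0.379 in the permutation test, and 1 other pair was called, Csf1r and Itgam, with r = 0.587 in ART and -0.437 in NON mice (permutation adjusted p = 0.041).

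**Figure D3:**
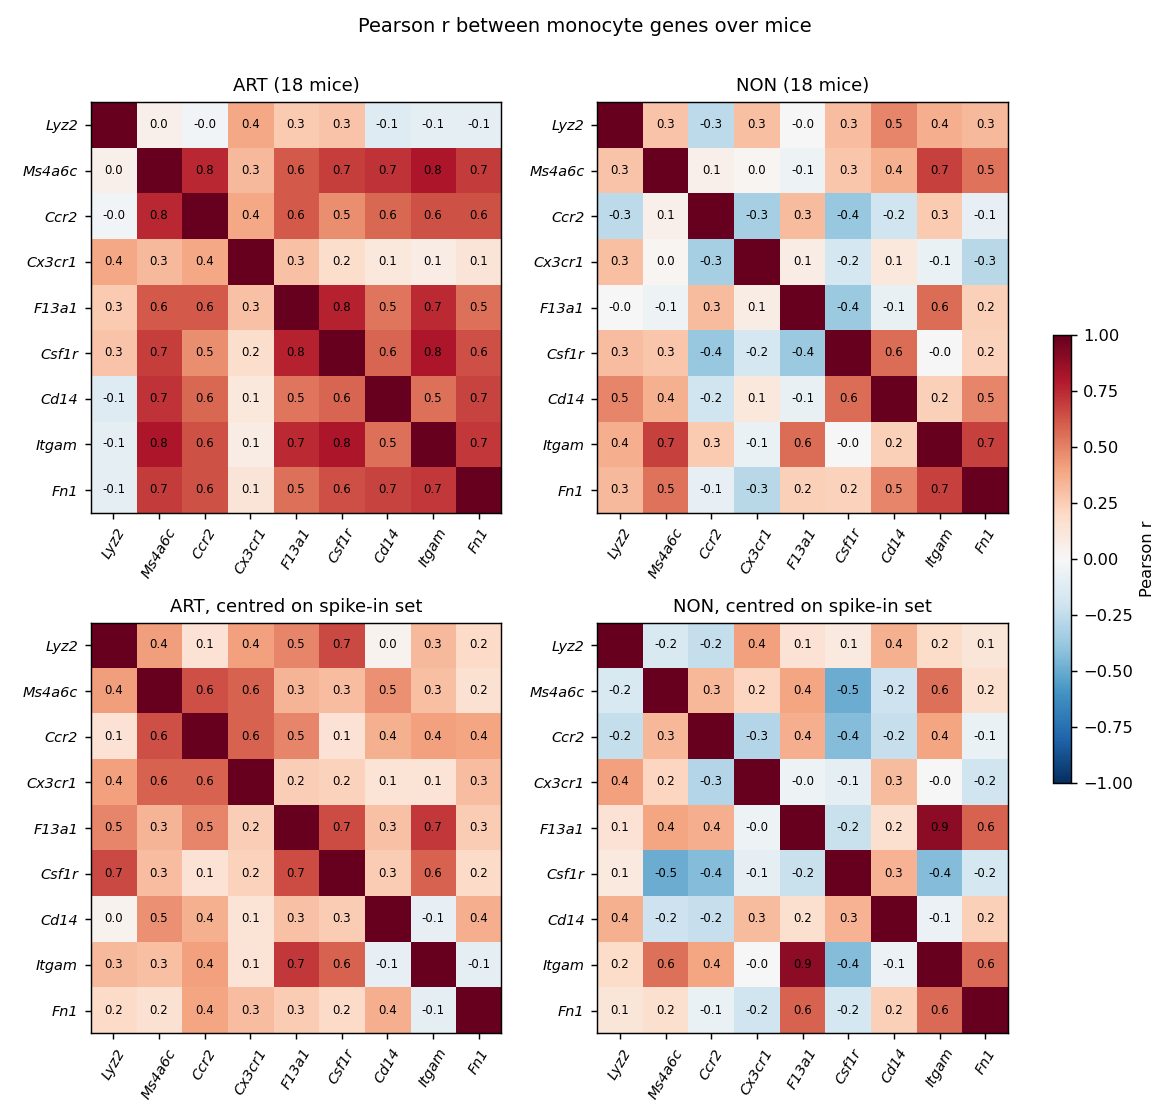
Pearson r between the 9 genes over 18 ART mice (left) and 18 NON mice (right), as measured (top) and after centring each gene on the spike-in set (bottom), red for positive and blue for negative. The ART panel is mostly red outside the rows of Lyz2 and Cx3cr1 (median 0.55, against 0.23 in NON). After centring the medians are 0.32 and 0.13, and the NON panel holds both red and blue cells.

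**Figure D4:**
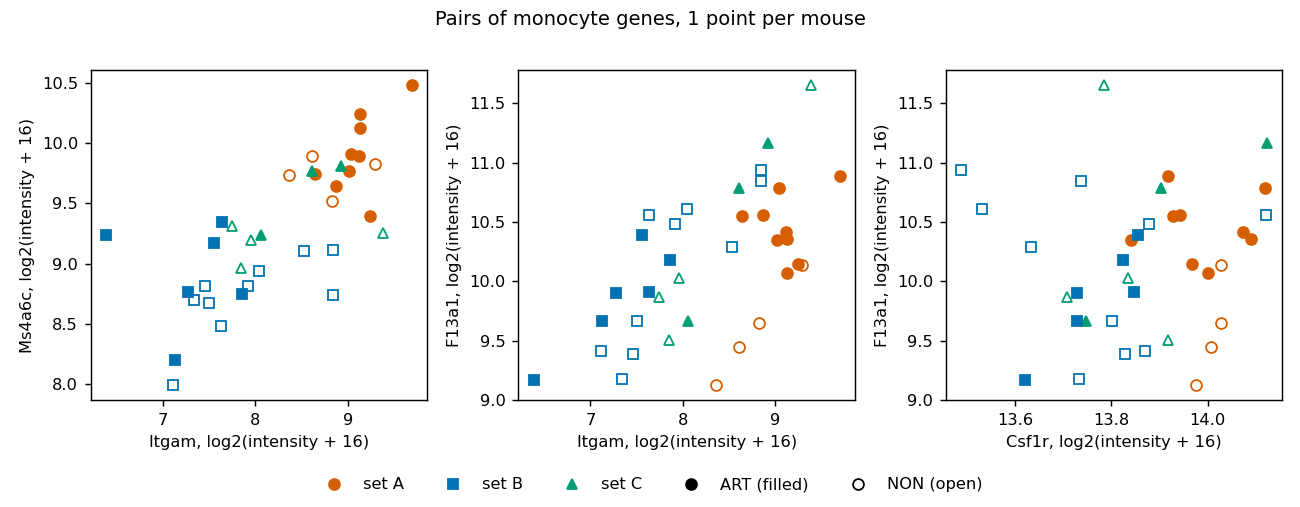
Log2(intensity + 16) of pairs of genes, 1 point per mouse, filled for ART and open for NON, with colour and shape for the spike-in set. Pearson r was 0.757 for Itgam with Ms4a6c over all mice, 0.554, 0.843 and 0.967 for Itgam with F13a1 within sets A, B and C, and 0.771 in ART and -0.368 in NON mice for Csf1r with F13a1.

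Probe sets of one gene did not always follow each other. Over 36 mice r was 0.766 between the Ccr2 probe sets 1421186_at and 1421187_at and between -0.06 and 0.17 for its other pairs. The 3 Csf1r probe sets had r from 0.620 to 0.770. After centring on the spike-in set as well, 1419872_at had r = 0.625 with 1419873_s_at and 0.304 with 1423593_a_at. Between the probe sets of Ms4a6c, Fn1 and Cx3cr1 r was -0.05, -0.12 and 0.21, and 0.01, 0.23 and 0.07 after centring on the set. A statement on these genes thus rests on the probe set named.

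Close relatives of the members were read beside them, since near-identical transcripts can share probes. Ms4a6d and Ms4a6b are neighbours of Ms4a6c in the MS4A family. The brightest Ms4a6d probe set, 1419599_s_at, ran from 205 to 1730, with a median of 474, in ART and from 221 to 534, with a median of 374, in NON spleens, a log2 difference of 0.51 (SE 0.17, limma adjusted p = 0.147). Its other tested probe set, 1419598_at, differed by 0.84 (SE 0.21, limma adjusted p = 0.0857). Their r with Ms4a6c over mice was 0.510 and 0.630. The brightest Ms4a6b probe set, 1418826_at, differed by 0.29 (SE 0.07, limma adjusted p = 0.0857) and the other, 1439956_at, by -0.07 (SE 0.12), with r of 0.243 and -0.265 with Ms4a6c. After centring on the spike-in set as well, these Ms4a6b probe sets had r of 0.441 and 0.42 with Ms4a6c. The Ms4a6d probe sets 1419599_s_at and 1419598_at then had 0.434 and 0.499. The brightest probe set of Lyz1, the intestinal lysozyme gene next to Lyz2, was 1436996_x_at, with r = 0.789 with Lyz2. Its medians were 25600 in ART and 25300 in NON spleens. The other Lyz1 probe sets, 1439426_x_at and 1450822_at, had r of 0.273 and 0.127 with Lyz2. On 1450822_at the medians were 96.4 in ART and 86.1 in NON spleens. The share of each transcript in these signals was not tested. Among the integrin alpha chains, Itgax (CD11c) ran against Itgam with r = -0.451 and Itgal (CD11a) with r = -0.279, on the probe sets that represent them. The sign for Itgal depended on the probe set, since its other one, 1425367_at, had r = 0.324 with Itgam, and -0.502 after centring on the spike-in set.

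The genes most like the members were found by r with the mean of the group-centred members over 36 mice, as a description. The highest were Msrb1 (r = 0.833) and Msra (r = 0.816), which repair oxidised methionine, Lrg1 (r = 0.824), the formyl peptide receptor Fpr2 (r = 0.824), the secretory GTPase Rab3d (r = 0.824), the galectin Lgals3 (r = 0.810), Slfn4 (r = 0.806), the complement receptor C5ar1 (r = 0.803), Cd300lb (r = 0.803) and Igsf6 (r = 0.802). The lowest were Fam8a1 (r = -0.863), Igfbp3 (r = -0.850), Smarca2 (r = -0.831), Togaram1 (r = -0.829) and Lrp6 (r = -0.826). After centring on the spike-in set as well, Slfn4 came first (r = 0.840), followed by Atp8b4 (r = 0.817), Alox5ap (r = 0.802), which serves leukotriene synthesis, Fpr2 (r = 0.792), Msrb1 (r = 0.792), C5ar1 (r = 0.787), Wfdc21 (r = 0.785), Trem3 (r = 0.780), Ifitm6 (r = 0.779) and the chemokine receptor Ccr1 (r = 0.774). The lowest there were Pptc7 (r = -0.761), Fam8a1 (r = -0.706), Pdcd7 (r = -0.706), Lrp6 (r = -0.682) and Togaram1 (r = -0.681). The members were not scaled to equal spread, so those that ranged most weighed most in the mean. Before centring on the set, Itgam had r = 0.888 with it and Ms4a6c 0.824. Fn1, F13a1, Cd14 and Ccr2 had 0.678, 0.668, 0.650 and 0.638, and Csf1r, Cx3cr1 and Lyz2 had 0.478, 0.297 and 0.243. The genes named here are thus less like the last 3 members.

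Each member was then set against the mean of marker genes of 9 cell types over 36 mice, which made 81 relations. By permutation, adjusted over the 81, 31 passed (38.3%), and 14 passed (17.3%) on values centred on group and spike-in set. The other tested genes reached the same unadjusted p with these lists in 25.3% of 111676 relations, and in 8.25% after centring on the set, so a call with some list is common on these arrays. Itgam followed the classical monocyte list (15 of 21 genes tested) with r = 0.843 and rho = 0.837, and with r = 0.842 after centring on the set and 0.804 without the 2 farthest mice (permutation adjusted p = 0.000162 for r and 0.000135 after centring). It also followed the neutrophil list (11 of 13 genes tested) with r = 0.565 and, after centring on the set, 0.779.

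F13a1 followed the neutrophil list most closely, with r = 0.844 and rho = 0.832, with 0.816 after centring on the set and 0.840 without the 2 farthest mice. Its r was 0.758 with classical monocytes and 0.662 with megakaryocytes and platelets, and 0.806 and 0.702 after centring. Both genes ran against the spleen lymphocyte list, Itgam with r = -0.775 and F13a1 with r = -0.568, and with -0.683 and -0.597 after centring (permutation adjusted p = 0.000162 for Itgam and 0.000884 for F13a1 before centring). The mean level of the neutrophil list ran from 10.7 to 12.9 in ART and from 10.6 to 13.1 in NON spleens on the log2 scale, with no marker gene past the threshold. The part of neutrophils or platelets in the signal of Itgam and F13a1 was not tested.

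Ms4a6c followed the classical monocyte list with r = 0.594 and, after centring on the set, 0.552 (permutation adjusted p = 0.00432). Its r with tissue macrophages was 0.621, against -0.02 after centring on the set. Csf1r, Cd14, Itgam and Fn1 had r of 0.582, 0.567, 0.624 and 0.434 with that list, and after centring 0.22, 0.18, 0.00276 and -0.19. With the NK cell list Ms4a6c, Cd14 and Csf1r had r of 0.623, 0.654 and 0.542, and 0.20, 0.415 and 0.20 after centring. With stroma Ms4a6c, Itgam and Csf1r had r of -0.643, -0.700 and -0.581, and -0.202, -0.354 and -0.261 after centring.

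Ccr2 followed the classical monocyte list with r = 0.600 and rho = 0.559 (permutation adjusted p = 0.00138 and 0.00313), with 0.481 without the 2 farthest mice and 0.442 after centring on the set, which did not pass (permutation adjusted p = 0.0589). With the non-classical list Ccr2 had r = 0.509 (permutation adjusted p = 0.00933) and, after centring, 0.610 (permutation adjusted p = 0.00437). There rho was 0.354, which did not pass (permutation adjusted p = 0.0918), and r without the 2 farthest mice was 0.361. Cx3cr1 was called by r with the non-classical list alone among the 9 (r = 0.411, permutation adjusted p = 0.0414), with 0.402 after centring, which did not pass. Its rho of 0.351 did not pass either (permutation adjusted p = 0.0918), and r was 0.305 without the 2 farthest mice. Lyz2 was called with 0 of the 9 lists before centring and with neutrophils after it (r = 0.455, permutation adjusted p = 0.0294).

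**Figure D5:**
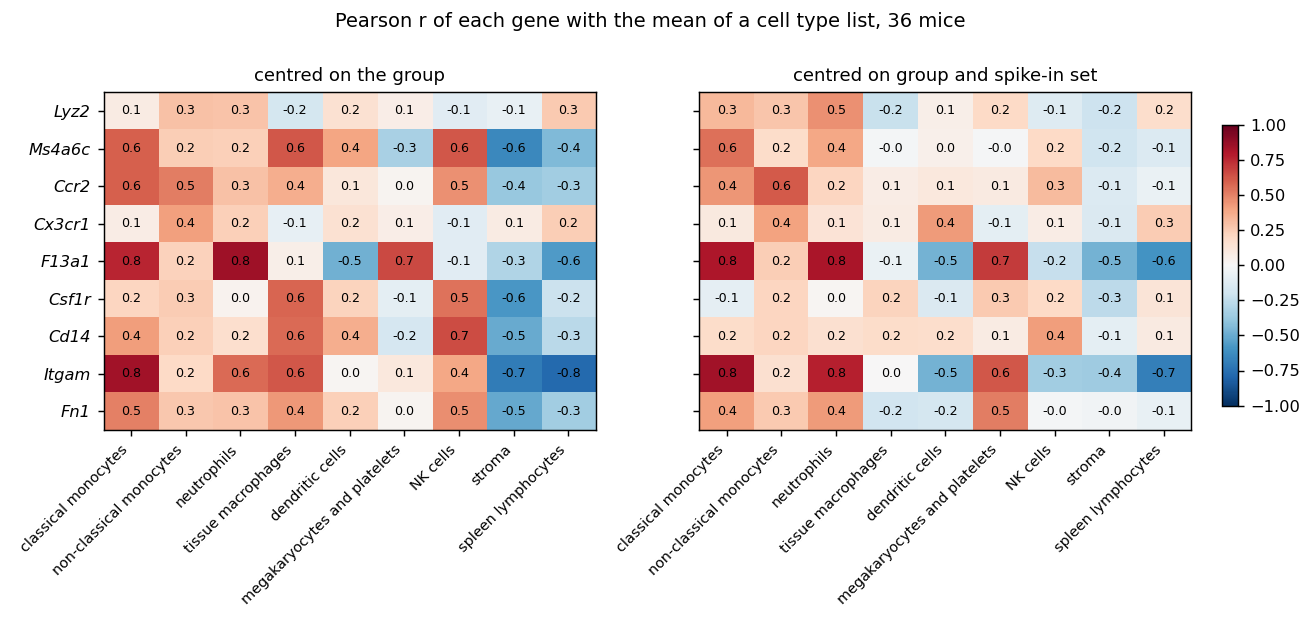
Pearson r over 36 mice between each member and the mean of the marker genes of a cell type, centred on the arthritis group (left) and on group and spike-in set (right). Itgam has r of 0.843 and 0.842 with classical monocytes and F13a1 0.844 and 0.816 with neutrophils in the left and right panels. In the tissue macrophage column Ms4a6c, Ccr2, Csf1r, Cd14, Itgam and Fn1 lie nearer 0 on the right, and Lyz2, Cx3cr1 and F13a1 do not.

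Genes of the pathways and cells around the members were tested in the same ART against NON fit. Of 165 listed genes 137 were tested, 0 passed by limma in either direction, and 23 had an unadjusted p under 0.05. Over the whole array 4250 of 27022 probe sets or 15.7% did so, and 23 of 137 lies near that share. Of the 15 tested genes of the classical monocyte list 10 were positive, with a median difference of 0.109 and 0.02 with the spike-in block. Plac8, a small protein of myeloid cells, differed by 0.31 (SE 0.08, limma adjusted p = 0.0857), and Gda, a guanine deaminase, by -0.35 (SE 0.16). Leaving out NON mouse 2 put Ms4a6b, Plac8 and the factor Spi1 past the threshold, with limma adjusted p-values of 0.0313, 0.0322 and 0.0404. Ms4a6b also passed without NON mouse 5 or ART mouse 17, and Plac8 without NON mouse 5. Calls over the whole array rose too, from 13 higher and 0 lower with every mouse. They were 285 higher and 104 lower without NON mouse 2, 178 and 72 without NON mouse 5, and 31 and 6 without ART mouse 17.

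Of the 10 genes on the list called the CSF1 receptor axis 8 were positive, with a median of 0.153. That list also holds Csf2ra, Csf2rb and Csf3r, receptor genes of other colony stimulating factors. The GM-CSF receptor subunits Csf2ra and Csf2rb differed by 0.48 (SE 0.15) and 0.16 (SE 0.07). The second ligand of the CSF1 receptor, Il34, differed by 0.25 (SE 0.09, limma adjusted p = 0.151) and the adaptor Grb2 by 0.17 (SE 0.06). With the spike-in set as a block the median of this list was 0.09. Csf2ra then differed by 0.23, Csf2rb by 0.15, Il34 by 0.21 and Grb2 by 0.17. Of the 9 myeloid transcription factors 3 were positive and 6 negative, with a median of -0.03. The positive ones were Spi1, which encodes PU.1, with 0.26 (SE 0.08, limma adjusted p = 0.121), Runx1 with 0.35 (SE 0.16) and Cebpb with 0.13 (SE 0.07), and the immediate early gene Egr1 differed by -0.35 (SE 0.17). With the block Spi1 differed by 0.16, Runx1 by 0.21, Cebpb by 0.11 and Egr1 by -0.07, and the median of the factors was 0.01.

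Of 13 genes around the CD14 and TLR4 complex 8 were positive, and the adaptor Myd88 differed by 0.15 (SE 0.06) and the TLR4 partner Ly96 by 0.16 (SE 0.12). Of 13 integrin and fibronectin partners 8 were positive, with Itgal at 0.19 (SE 0.08), the integrin ligand Icam1 at 0.14 (SE 0.10) and the transglutaminase Tgm2 at 0.14 (SE 0.10). Of the 6 tested chemokine and receptor genes 2 were positive, Ccr1 at 0.21 (SE 0.17) and Ccl4 at 0.14 (SE 0.15), and 4 negative, among them Ccl8 at -0.20 (SE 0.22) and Cx3cl1, the ligand of the Cx3cr1 receptor, at -0.07 (SE 0.16). The non-classical list had 4 of 10 positive, with a median of -0.03.

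Among lists of other cells, neutrophils had 9 of 11 genes positive with a median of 0.07, tissue macrophages 11 of 13 with 0.08, and megakaryocytes and platelets 8 of 8 with 0.238. Dendritic cells had 5 of 8 positive with 0.188, NK cells 3 of 5 with 0.02 and spleen lymphocytes 4 of 7 with 0.06. The lymphocyte list pools T and B cell genes. Its T cell genes Cd3e and Cd4 differed by -0.47 (SE 0.15, limma adjusted p = 0.128) and -0.29 (SE 0.13). Its B cell genes Ms4a1 and Cd79b differed by 0.15 (SE 0.09) and 0.13 (SE 0.095). With the spike-in set as a block Cd3e differed by -0.27 and Cd4 by -0.16. Stroma had 1 of 9 positive with a median of -0.40, and its collagen gene Col3a1 differed by -0.42 (SE 0.12, limma adjusted p = 0.0975), which passed without NON mouse 6 (limma adjusted p = 0.0488). Without that mouse 13 probe sets were called higher and 7 lower over the whole array. Pancreas genes had 1 of 4 positive with a median of -0.22, and their mean level ran from 6.18 to 12.9 in ART and from 5.90 to 13.5 in NON spleens. With the spike-in set as a block the median of tissue macrophages was -0.12, of NK cells -0.19, of neutrophils 0.12, of megakaryocytes and platelets 0.349 and of stroma -0.21.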

How the data were processed

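Spleen RNA from 36 mice was labelled with biotin and hybridised to Affymetrix arrays, 1 per mouse, per the labels. Groups and replicate numbers come from the titles. The deposited values are linear intensity from MAS5, which the submitters' processing notes name without a version. They had been scaled per array to a trimmed mean of 500 with 2% taken off each end, and no further normalization was applied.

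Values were analysed as log2(value + 16), which understates changes of dim probe sets. The 64 manufacturer's controls were left out, as were probe sets with a mean below the 40th percentile (log2 6.49). Of 45037 probe sets, 34945 named 1 gene in the platform annotation, 932 several and 9160 were not listed; 34741 of the first matched a RefSeq gene (GRCm38.p6) by ID. The probe set with the highest mean represented its gene. Differences and spread (absolute deviations from the group median) were tested with limma 3.58.1 (in R 4.3.3; lmFit, then eBayes with a trend; two-sided, Benjamini-Hochberg over 27022 probe sets, threshold 0.05). Pair and list correlations used 100000 two-sided permutations of mice, and 10000 for the share over all genes. Spike-in sets are Ward clusters of 18 hybridisation control probe sets. The tests were tested on simulated data. Other steps ran in Python 3.11.15 with scipy 1.17.1, numpy 2.4.6, matplotlib 3.10.9 and pandas 2.3.3.

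Named genes are the 9 members with every probe set, their paralogs, the 10 highest and 5 lowest by r with the member mean, and from each list those past the threshold and up to 4 with the smallest p, of which some are printed. Lists of classical and non-classical monocytes, myeloid transcription factors, chemokines, the CSF1 receptor axis, the CD14 and TLR4 complex, integrin partners, neutrophils, macrophages, dendritic cells, platelets, NK cells, stroma, pancreas and lymphocytes were used. The members, lists and settings were chosen with earlier results of these data known. The labels do not say whether mice share litters or days, so p-values measure the spread between these mice. The number of arrays limits the precision. The same replicate number in both groups did not pair the mice: over 18 pairs r of their deviations was over 0.1 in 11 and ran from -0.228 to 0.473. Alternatives were other pseudocounts, no filter, quantile normalization, no trend, blocks, array weights, a Gapdh covariate, the mean of a gene's probe sets, leaving out each array and, chosen after seeing the data, leaving out the 4 arrays with high pancreas transcripts, array weights and the Gapdh covariate for the listed genes, and comparing spike-in sets.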

Additional observations from a re-analysis of the deposited data

Results flagged for a closer look

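The relation between F13a1 and Csf1r differed between the groups in a permutation test, with r = 0.771 in ART and -0.368 in NON mice (adjusted p = 0.0216). The relation between Ccr2 and Fn1 also differed, with r = 0.637 in ART and -0.083 in NON mice (permutation adjusted p = 0.0216). On values centred on the spike-in set F13a1 and Csf1r had r = 0.654 in ART and -0.226 in NON mice, and Ccr2 and Fn1 had 0.397 in ART and -0.07 in NON mice; neither difference passed. At an unadjusted p under 0.05 there were 8 of the 36 pairs, and the share over all gene pairs was not computed for this test.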

How the results depend on the processing

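The count of member probe sets past the threshold stayed at 0 under both other pseudocounts, without the filter, after quantile normalization, without the trend, with the spike-in set or the Gapdh ratio in the model, with the mean of a gene's probe sets, and without each array in turn (0 to 0). With limma array weights it was 4 (Ms4a6c 1450234_at, Ccr2 1421187_at and Csf1r 1419873_s_at and 1423593_a_at), a setting that called 2905 probe sets higher and 2422 lower in all and 32 of the 137 listed genes (19 higher, 13 lower), against 0; the cause was not tested. With the replicate number as a block it was 1 (Ms4a6c, adjusted p = 0.0406), and 4 of the listed genes passed (Csf2ra, Ms4a6b, Plac8 and Spi1). That block called 271 higher and 98 lower in all, although only 2 ART arrays correlated best with the NON array of their own number; the samples share only a number.

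The count over all probe sets was 0 with the spike-in block, without the filter and without the trend, 1 higher after quantile normalization, and 26 higher and 15 lower without the 4 arrays with high pancreas transcripts, where 0 member probe sets and 11 pairs passed. The ART minus NON difference changed sign with the spike-in block for Cd14 (-0.0743), Itgam (-0.108) and Fn1 (-0.0237), with the Gapdh ratio for Cd14 (-0.0448) and Itgam (-0.0574), and for Ccr2 with array weights (0.0735), with the mean of its probe sets (0.032) and among the single arrays left out (-0.104 to 0.0149). The spread difference changed sign for Cx3cr1 with a pseudocount of 64 (0.0017) and among single arrays left out (-0.0434 to 0.0424), for Lyz2 after quantile normalization (-0.056) and for Itgam with deviations taken within the spike-in set (-0.181). Called pairs numbered 3 after centring on the spike-in set, against 13, and 10 to 14 without single arrays.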
